A study of Canis lupus familiaris with 6 samples.

Results

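The BCL2 family was followed in MDCK type II cells, an epithelial line from dog kidney, after loss of the adhesion receptor E-cadherin. It was taken as 10 genes chosen by symbol from the deposited table of 12851 genes: the anti-apoptotic BCL2L1, BCL2 and MCL1, the pore-forming BAX and BAK1, and the BH3-only BBC3, PMAIP1, BID, BIK and BCL2L11. Of these, 9 had a row with values, each on a single row, and BIK was not analysed here. The study compared 3 libraries from cells with E-cadherin knocked out (KO, labelled as E-cadherin loss of function) with 3 from wild-type cells (WT, labelled as control), both grown in the same serum-containing medium. How many clones the KO line holds, and whether replicate libraries were grown as separate cultures, is not stated in the labels, so the p-values speak for the spread among these libraries alone and that spread may be technical. They also disagree on density, giving confluent dishes in the series text and 70 to 80% confluency in the growth protocol.

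BCL2 family proteins decide whether the mitochondrial outer membrane is opened. BAX and BAK1 form pores that release cytochrome c, the anti-apoptotic members hold these effectors and the BH3-only proteins in check, and the BH3-only proteins, induced or activated by damage or loss of adhesion, tip the balance towards pore formation. In epithelial cells this circuit controls anoikis, the death that follows loss of attachment, in which BCL2L11 (BIM) and BMF are the BH3-only proteins best known to act. Transcript level is only part of this control, since BID is cut, MCL1 is rapidly degraded and BCL2L1 is spliced into long anti-apoptotic and short pro-apoptotic forms, which a value per gene does not separate.

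Values are normalized counts, in which the authors had scaled the libraries to each other. Totals were 18281549 to 18681821 in KO libraries and 19002399 to 19386796 in WT libraries. CDH1, the targeted gene, averaged 1157 ± 68.8 in KO and 39185 ± 573 in WT (SD, n = 3 libraries each). Of 6 epithelial markers 5 were tested: their summed level was 34542 to 36008 in KO and 74010 to 77262 in WT with CDH1 included. CDH1 was the largest part of the WT sum. EPCAM was at 8120 ± 417 in KO and 8518 ± 398 in WT, and KRT18 at 23178.1 ± 892 in KO and 23195.5 ± 2020 in WT. The other markers moved in opposite directions. CLDN4 was lower in KO, at 2865 ± 254 against 4690 ± 388 in WT. CDH16 was higher in KO, at 147 ± 18.9 against 36.8 ± 4.26 in WT. Of the marker lists for other cell types, 0 of 5 fibroblast, 0 of 4 endothelial and 1 of 4 immune genes had values. The part of any of these in the results was not tested. In such bulk libraries a change in level per cell and a change in the share of cells cannot be told apart.

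Within the family, 3 of the 8 members tested rose in KO, 0 fell and 5 did not pass. The 3 were BCL2L1, BAK1 and BCL2L11, which belong to the anti-apoptotic, effector and BH3-only classes. A gene was called when limma's p, adjusted over all 12349 tested genes by the Benjamini-Hochberg method, was at most 0.05. By that rule 48.1% of all tested genes were called, 23.6% higher and 24.5% lower. Beside the share called in either direction, 3 of 8 is not high. By direction the members stood at 3 of 8 higher and 0 of 8 lower, and whether so few genes differ from the shares of all genes was not tested. The median log2 fold change was 0.14 over the 8 members and -0.01 over all tested genes, and the median size regardless of sign was 0.20 and 0.21. At an unadjusted p under 0.05 the members were the same 3, with 0 lower, beside 6703 of all 12349 tested genes. The authors' deposited table also calls these 3 higher and 0 lower at the same threshold, in a fit that called 44.3% of its genes, 21.5% higher in KO.

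BCL2L1, which encodes BCL-XL, had the widest separation between genotypes. It was at 2916, 3102 and 3092 normalized counts in the KO libraries, against 1646, 1629 and 1639 in the WT libraries. Every KO value lay well above every WT value. The WT libraries differed among themselves by little, with a coefficient of variation of 0.528% against 3.45% in KO. With 3 libraries in each group, whether these spreads differ was not tested. The KO mean was 1.85 times the WT mean (log2 fold change 0.89, SE 0.047, 95% interval 0.79 to 0.99, limma adjusted p = 3.98e-09). Of all tested genes, 10.8% had a larger change in either direction.

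BCL2, the founding anti-apoptotic member, did not pass. It was at 129, 118 and 125 normalized counts in KO and 155, 136 and 139 in WT. The 3 KO values all lay below the 3 WT values, by a gap smaller than the spread within either group, and the log2 fold change was -0.21 (95% interval -0.45 to 0.04, limma adjusted p = 0.154). MCL1, a short-lived guardian of the outer membrane, was at 5630, 5544 and 5313 in KO and 5183, 5613 and 5385 in WT. These ranges overlapped almost entirely, and the 95% interval of its log2 fold change ran from -0.07 to 0.12 (limma adjusted p = 0.647). The log2 fold changes of the 3 anti-apoptotic transcripts were thus 0.89 for BCL2L1, -0.21 for BCL2 and 0.03 for MCL1, with the intervals of BCL2 and MCL1 both wholly below that of BCL2L1.

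**Figure D1:**
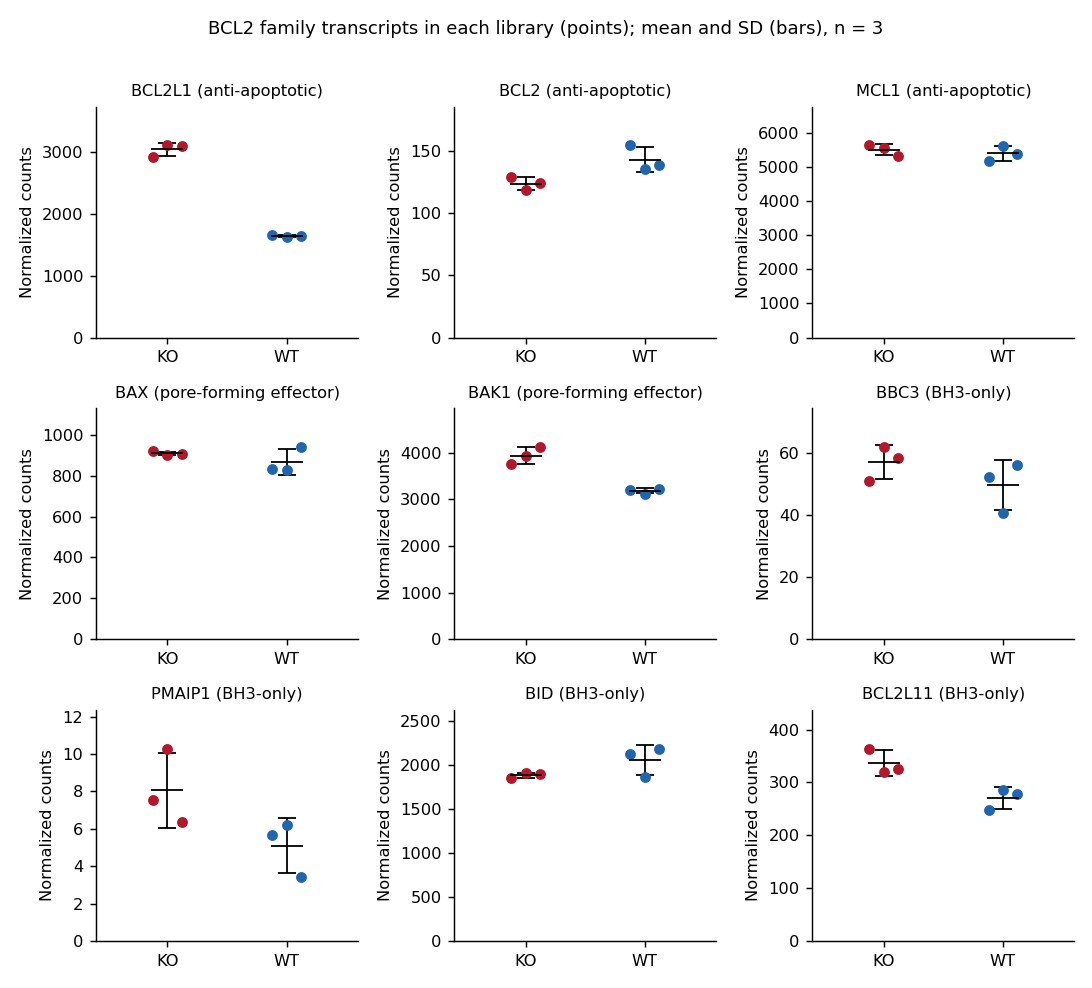
Normalized counts (vertical axes, each starting at 0) of the 9 members with values, in 3 KO libraries (red points, left) and 3 WT libraries (blue points, right), with mean and SD bars. BCL2L1, BAK1 and BCL2L11 have every KO point above every WT point and passed the test, PMAIP1 is under 12 counts in every library, and MCL1 overlaps.

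Of the pore-forming pair, BAK1 rose and BAX did not pass. BAK1, which sits in the outer membrane of healthy cells, was at 3766, 3924 and 4124 in KO and 3199, 3124 and 3227 in WT. The lowest KO library exceeded the highest WT library, and the KO mean was 1.24 times the WT mean (log2 fold change 0.31, SE 0.047, 95% interval 0.20 to 0.41, limma adjusted p = 0.000112). Changes of larger size were seen for 37.3% of tested genes. BAX, which moves to mitochondria from the cytosol on activation, was at 919, 901 and 906 in KO and 832, 826 and 941 in WT. The KO values lay inside the WT range, and WT replicate 3 alone was above them (log2 fold change 0.07, 95% interval -0.07 to 0.21, limma adjusted p = 0.388).

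Among the BH3-only genes, BCL2L11 rose by a small margin. It was at 364, 319 and 325 in KO and 248, 286 and 279 in WT, with no overlap. The KO mean was 1.24 times the WT mean (log2 fold change 0.31, SE 0.092, 95% interval 0.11 to 0.51, limma adjusted p = 0.0127). This call rested on single libraries: without WT replicate 1 the adjusted p was 0.0652, and without KO replicate 1 it was 0.0662.

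BID, which links death receptors to mitochondria once cut by caspase 8, was at 1852, 1904 and 1894 in KO and 2123, 1860 and 2187 in WT. WT replicate 2 lay among the KO values and the other WT libraries above them, so the groups overlapped and the member did not pass (log2 fold change -0.12, 95% interval -0.25 to 0.01, limma adjusted p = 0.110). Without WT replicate 2 its log2 fold change was -0.19 (adjusted p = 0.00338). BBC3, or PUMA, a p53 target, was at 50.9, 61.8 and 58.1 in KO and 52.3, 40.5 and 56.0 in WT. The groups overlapped, and at this level the interval was the widest of the 8, from -0.19 to 0.59 (adjusted p = 0.377).

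PMAIP1, or NOXA, which binds MCL1, was at 7.54, 10.3 and 6.37 in KO and 5.69, 6.17 and 3.43 in WT. The KO values were all above the WT values, but its mean lay under the minimum of 10 set for testing. With no minimum its log2 fold change was 0.58 (limma adjusted p = 0.230), so a difference was not detectable at this depth. Of the 8 tested members, 4 had KO and WT values that did not overlap, BCL2L1, BAK1 and BCL2L11 above and BCL2 below, where 56.4% of all tested genes did not overlap, 27.8% with KO above and 28.6% with KO below.

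**Figure D2:**
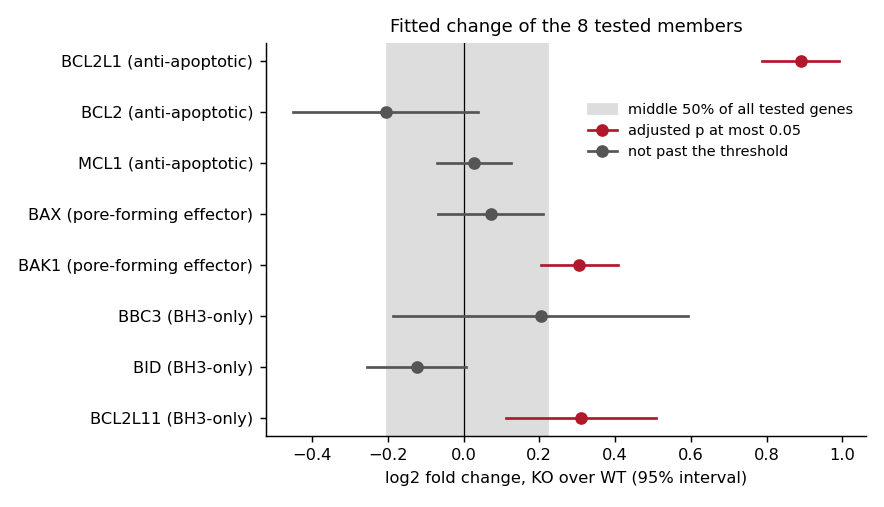
Fitted log2 fold change of KO over WT (points) with 95% interval (lines) for the 8 tested members, ordered by class; the grey band spans the middle 50% of all tested genes, from -0.20 to 0.22. BCL2L1, at 0.89, lies far outside the band, BAK1 and BCL2L11, at 0.31, lie just outside it, and BCL2, at -0.21, lies at its lower edge.

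Ratios between members within a library show the same values in the form in which the family is often discussed. A ratio depends on the lengths of both transcripts, so only its difference between genotypes can be read, and no test was run on it. The BCL2L1 to BAX ratio was 3.17, 3.44 and 3.41 in KO and 1.98, 1.97 and 1.74 in WT, a KO mean 1.76 times that of WT. The BCL2L1 to BAK1 ratio averaged 0.772 ± 0.020 in KO and 0.515 ± 0.0067 in WT (SD, n = 3 each), or 1.499 times. Both separated the genotypes without overlap, the ratio to BAK1 by less than the ratio to BAX.

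For the other guardians the ratios lay the other way. BCL2 to BAK1 averaged 0.0315 ± 0.0023 in KO and 0.0450 ± 0.0030 in WT, and MCL1 to BAK1 averaged 1.40 ± 0.10 in KO and 1.70 ± 0.091 in WT (SD, n = 3 each), both with every KO library below every WT library. MCL1 to BAX overlapped, at 6.05 ± 0.16 in KO and 6.25 ± 0.54 in WT. Set against BCL2L11, BCL2L1 was at 9.08 ± 0.93 in KO and 6.07 ± 0.51 in WT, while MCL1 was at 16.39 ± 0.95 in KO and 19.96 ± 0.86 in WT. BAK1 to BAX, the balance between the effectors, was 4.10, 4.35 and 4.55 in KO and 3.84, 3.78 and 3.43 in WT.

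**Figure D3:**
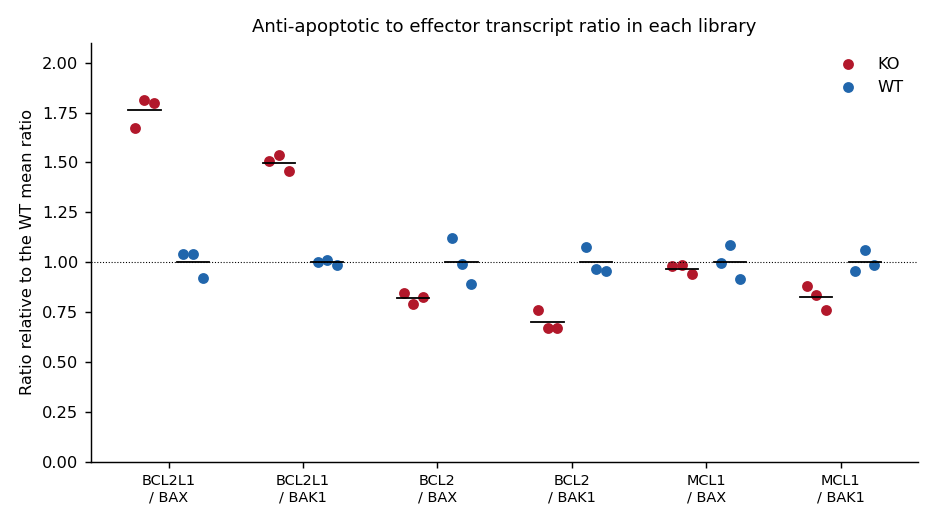
Ratio of each anti-apoptotic transcript to each effector transcript in 3 KO (red) and 3 WT (blue) libraries, divided by the WT mean of that ratio; lines are group means and the dotted line is the WT mean. BCL2L1 ratios are 1.76 and 1.499 times the WT mean in KO, BCL2 and MCL1 ratios to BAK1 are 0.701 and 0.825 times the WT mean, and MCL1 to BAX overlaps.

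The member with the widest separation has neighbours that were higher in KO too. The 10 nearest tested genes on each side of BCL2L1 were taken in the gene order of the reference assembly UU_Cfam_GSD_1.0. Of these, 19 of 20 were called higher and 0 lower, beside 23.6% and 24.5% of all tested genes. Their median log2 fold change was 0.92. The value of BCL2L1 was 0.03 below that median, and 11 of the 20 neighbours exceeded it. Nearest on either side were HM13 and ID1, a BMP-responsive transcription regulator, with log2 fold changes of 0.86 and 2.03, and TPX2, a spindle assembly factor, and PDRG1, with 0.58 and 0.91. The exception was TRIB3, a pseudokinase of the stress response named here after its value was seen, at 1989 ± 94.7 in KO and 1911 ± 109 in WT (log2 fold change 0.06, limma adjusted p = 0.429). The part of gene position in the BCL2L1 change was not tested.

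The neighbours of BAK1 and BCL2L11 did not show this. Around BAK1, 5 of 20 neighbours were called higher and 3 lower (median 0.08), where 23.6% of all tested genes were higher and 24.5% lower. The change of BAK1 was exceeded by 1 of the 20. Next to BAK1 were UQCC2, which was not called (log2 fold change 0.08), and ZBTB9 and ITPR3, an inositol trisphosphate receptor, with 0.25 and 0.15. The ZBTB9 call was lost when KO replicate 2 or 3 or any WT library was left out (adjusted p = 0.0750 to 0.213), and also with a pseudocount of 0.5, no minimum mean, the replicate block, plain limma moderation and in the authors' deposited table (adjusted p = 0.05002 to 0.0717). The ITPR3 call was lost without KO replicate 1 or 3 (0.0545 and 0.0902) and under plain moderation, that is with the trend and robust options off (0.0863). Around BCL2L11, 2 of 20 were called higher and 7 lower (median -0.12), so that BCL2L11 lay 0.43 above its neighbours' median. Its closest neighbours were MTLN, BUB1, a spindle checkpoint kinase, and ANAPC1, which did not pass (log2 fold changes -0.35, -0.04 and -0.27), and TMEM87B, which fell by 0.57.

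For the members that were not called, the neighbour medians were -0.10 for BCL2, -0.15 for MCL1, 0.00 for BAX, 0.10 for BBC3 and -0.10 for BID, over 20 genes each except 13 for BID. BCL2 and PMAIP1 lie close enough to share 14 of these genes. Of the 20 around BCL2, 10 were called lower and 5 higher, beside 24.5% and 23.6% of all tested genes.

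**Figure D4:**
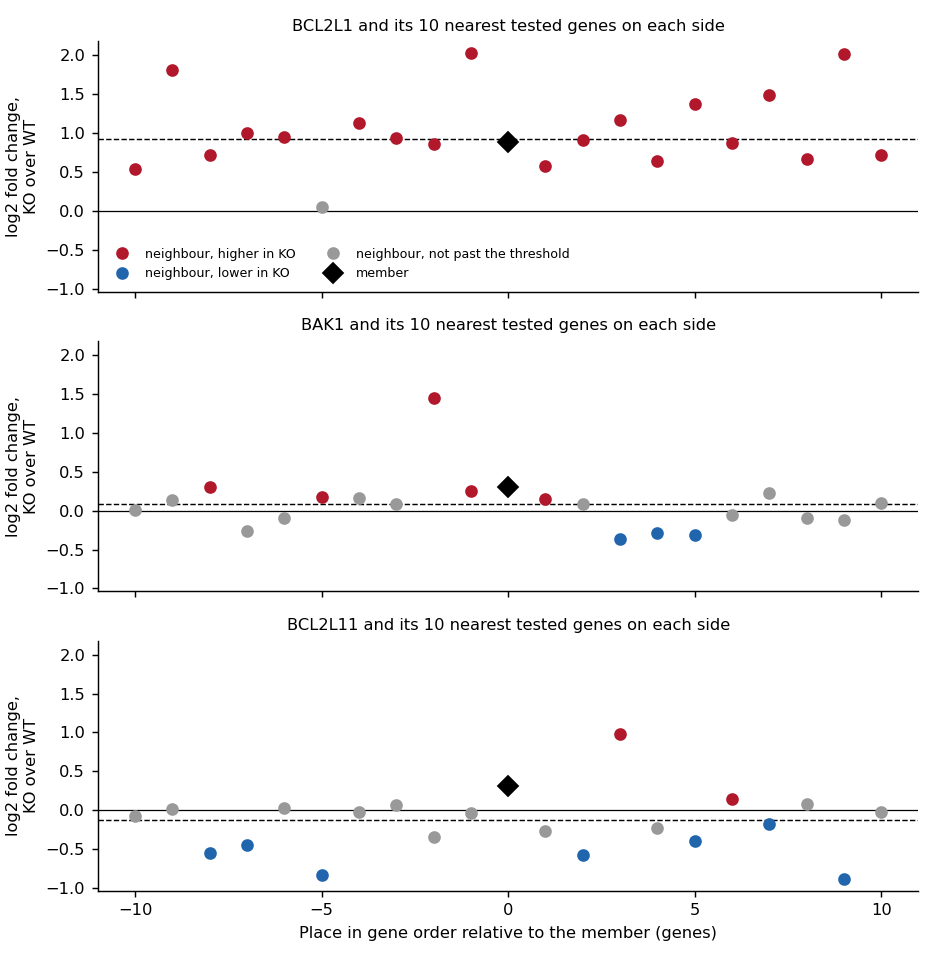
Log2 fold change of KO over WT (vertical axes) of BCL2L1, BAK1 and BCL2L11 (black diamonds) and of the 10 nearest tested genes on each side (circles: red called higher, blue called lower, grey not called) by place in the gene order; dashed lines are neighbour medians. BCL2L1 lies 0.03 below its neighbours' median of 0.92, while BCL2L11 lies 0.43 above its own.

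Genes whose levels across the 6 libraries ran most like BCL2L1 were PTGIS (prostacyclin synthase), CDK4 (a G1 cyclin-dependent kinase), IFFO2, CTSA (a lysosomal carboxypeptidase) and FHIP1A, with Pearson r from 0.9995 to 0.9998 on the log2 scale among 8700 genes with a mean of at least 100. Such r is set mostly by the difference between genotypes, which all 6 points share, and 610 of the 8700 genes had an r above 0.98. CDK4 was at 9962, 10424 and 10441 in KO and 6448, 6464 and 6551 in WT. KO replicate 1 was the lowest KO library for CDK4, for the other genes named here and for BCL2L1. These genes were picked for their likeness to BCL2L1 over the same libraries, so a shared order follows from the choice.

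The rest of the apoptosis pathway was described by 7 lists. Of 76 distinct tested genes in them, outside the 10 members, 17 were called higher and 19 lower, or 47.4%, beside the 48.1% of all tested genes. By list the share called ran from 33.3% (apoptosome and caspases, and partners and degradation factors) to 75.0% (inhibitors of apoptosis, 3 of 4). List medians lay between -0.13 and 0.01. Among other BCL2 homologues, BH3-only genes and genes of BCL2-interacting proteins, 2 of 9 tested rose and 3 fell (median -0.13). BMF, a BH3-only gene linked to anoikis, was at 38.5, 42.5 and 34.7 in KO and 11.5 to 14.4 in WT, a rise of 3.04 times in the means. BCL2L14 was at 6.70 to 8.83 in KO and 15.1 to 17.2 in WT and fell by 1.03 on the log2 scale, a call that the authors' deposited table does not make (adjusted p = 0.0982). BNIP2 and BNIP1 fell by 0.43 and 0.29, and BNIP3, a mitophagy receptor, rose by 0.16, a call lost without WT replicate 1 or KO replicate 1 or 2 (adjusted p = 0.111, 0.0881 and 0.108). BAD was at 113 ± 4.23 in KO and 124 ± 8.46 in WT and did not pass.

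Downstream of the pore, 3 of 15 apoptosome and caspase genes rose and 2 fell, the other 10 not passing, among them the apoptosome scaffold APAF1 at 614 ± 47.5 in KO and 637 ± 61.3 in WT. CASP6, an executioner caspase, was at 1713 ± 40.6 in KO and 2676 ± 79.2 in WT. CASP10, an initiator at death receptors, was at 445 ± 18.9 in KO and 635 ± 16.0 in WT. ENDOG, a mitochondrial nuclease, and DIABLO, which antagonises inhibitors of apoptosis, rose by 0.74 and 0.17 on the log2 scale, the DIABLO call being lost without KO replicate 2 (adjusted p = 0.0608). Of 4 tested inhibitors of apoptosis, BIRC3 was at 5678, 5514 and 5819 in KO and 1783, 1837 and 1580 in WT, 3.27 times in the means, while BIRC2 and XIAP fell by 0.35 and 0.27. The XIAP call was lost without WT replicate 2 or KO replicate 2 or 3 (adjusted p = 0.0512 to 0.0644). In the death receptor arm, FAS rose by 0.32, RIPK1 fell by 0.28 and FADD fell by 0.15, and 3 of 6 did not pass, including CFLAR (log2 fold change -0.11, adjusted p = 0.193). The FADD call was lost when WT replicate 1 or any KO library was left out (adjusted p = 0.0614 to 0.0919).

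Upstream, the 12 tested transcription factors and regulators known to act on BCL2 family genes held 4 higher and 4 lower (median -0.04). FOXO3, a known activator of BCL2L11, was at 4370 ± 234 in KO and 5799 ± 218 in WT. DDIT3 (CHOP) and ATF4, factors of the integrated stress response, fell by 0.70 and 0.34 on the log2 scale. JUN and MYC had log2 fold changes of 0.51 and -0.26, both called. RELA and STAT3, which can activate BCL2L1, did not pass, with log2 fold changes of 0.02 and -0.04.

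Of 16 tested p53 targets outside the family, 4 rose and 3 fell (median -0.02), with PHLDA3, POLH and DDB2 up by 0.47, 0.34 and 0.28 and GADD45A, SESN2 and PLK3 down by 0.91, 0.76 and 0.35 on the log2 scale. The DDB2 call was lost without KO replicate 2 or 3 (adjusted p = 0.0519 and 0.0638). Among 15 partners and degradation factors of the proteins, 2 rose and 3 fell (median -0.07). VDAC1, an outer membrane channel, was at 16436 ± 495 in KO and 12684 ± 313 in WT, and VDAC2, which holds BAK1 at the membrane, was at 6624 ± 136 in KO and 7928 ± 225 in WT. DYNLL2, the dynein light chain that tethers BMF, rose by 0.18, a call lost when any library except WT replicate 2 was left out (adjusted p = 0.0509 to 0.122), and BAG6 and RNF7 fell by 0.20 and 0.31. MARCHF5 and FBXW7, ubiquitin ligase components that act on MCL1, did not pass (log2 fold changes -0.07 and 0.11).

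**Figure D5:**
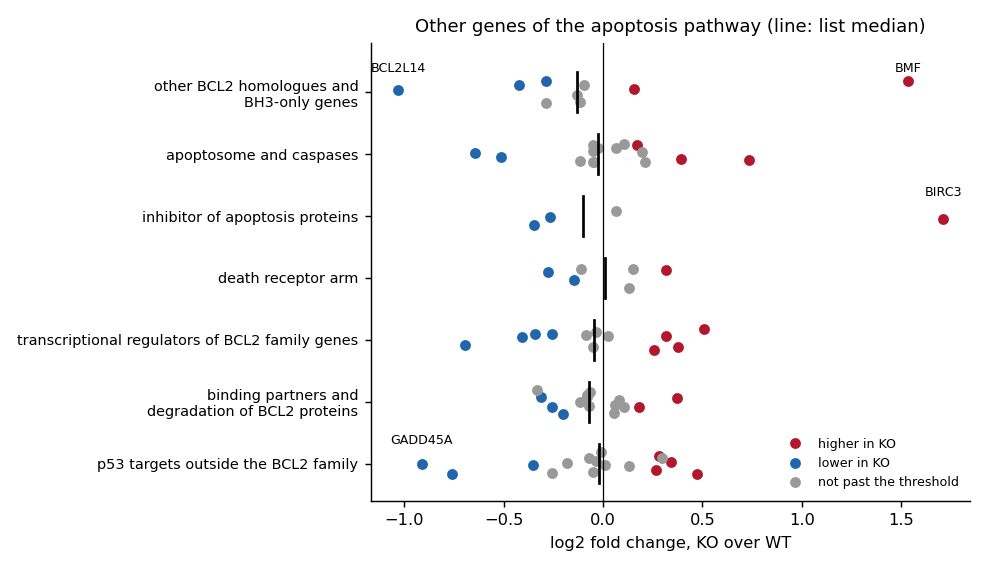
Log2 fold change of KO over WT (horizontal axis) of each tested gene in 7 apoptosis lists outside the 10 members (rows; red called higher, blue called lower, grey not called; black lines are list medians). Medians lie between -0.13 and 0.01, with BMF and BIRC3 farthest to the right and BCL2L14 farthest to the left.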

How the data were processed

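Poly-A RNA was measured in 3 KO and 3 WT libraries, made stranded from 250 ng of total RNA and read as 75-base pairs, per the labels' protocols. Per the submitters' processing notes, the tools included DESeq2 1.14.1, STAR 2.5.2b, Picard 2.8.1, featureCounts and FastQC. Neither build nor annotation is named in the sources used here, though the genes carry Ensembl dog identifiers. A normalized count signal per library was deposited by the authors in 1 table. Per the file headers it also holds their mean, log2 fold change with its error, score, p-value and adjusted p-value. At most 68.7% of values under 12 lay within 0.02 of a multiple of the best-fitting step in any library, so whole reads were not recovered, and the test that the design names for normalized values replaced a count test.

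Values were taken as log2(value + 1), which understates the change of low genes. The 12349 genes averaging 10 or more across libraries were fitted with limma 3.58.1 in R 4.3.3 (group only; trend and robust options, statmod 1.5.0; two-sided; Benjamini-Hochberg adjustment; threshold 0.05; 95% intervals unadjusted). This code was checked on simulated data. A repeated symbol was represented by its row of highest mean. Of 10003 symbols tested, 9788 had a place in the gene order of UU_Cfam_GSD_1.0, which served only to find neighbours. Tables were made in Python 3.11.15 with pandas 2.3.3. Members and lists were chosen with earlier results of these data known. Genes named were all 10 members, CDH1, up to 6 called genes per list with the smallest adjusted p, the 2 nearest neighbours on each side of a called member, and the 5 genes most like BCL2L1; uncalled list genes, markers and TRIB3 were named after their values were seen. Some genes that this rule takes in are counted but not reported here. Alternatives were other scalings, pseudocounts, filters and limma options, a replicate block, leaving out each library, a required fold of 1.5, and the authors' calls. Sharing of reads between similar genes was not assessed.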

Additional observations from a re-analysis of the deposited data

How the results depend on the processing

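The BCL2L1 and BAK1 calls held in all 14 refits with limma, with log2 fold changes of 0.87 to 0.92 and 0.27 to 0.34. For BCL2L11 the range was 0.25 to 0.35. The number of members called higher was 3 and lower 0 in the main test, and 2 to 3 and 0 to 1 when a library was left out, the 1 being BID without WT replicate 2. Over all genes, leaving out a library gave 2493 to 2918 higher and 2559 to 2998 lower. With a minimum fold of 1.5, 1 member (BCL2L1), 1285 genes higher and 815 lower remained past the rule. Directions turned for 2 uncalled genes: leaving out a library gave MCL1 log2 fold changes of -0.0010 (without WT replicate 1) to 0.056, and gave ANAPC1 -0.66 to 0.48 (without KO replicate 1), and the authors' deposited table has ANAPC1 at 0.047; the cause was not tested. In the authors' deposited table the log2 fold changes were 0.89 for BCL2L1, 0.31 for BAK1 and 0.30 for BCL2L11. Deviations of same-numbered libraries correlated at 0.054, -0.026 and -0.040, and those of differently numbered libraries at -0.066 to 0.090. No pairing by number was thus seen, but these values cannot tell whether same-numbered libraries were prepared together. With the replicate block 3 members were called higher and 0 lower, among 3000 genes higher and 3118 lower. PMAIP1 lay under the minimum mean, and of the 8 tested members BBC3, at the lowest counts, had the widest 95% interval.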

Other observations

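The deposited mean covers more libraries than the 6 columns: the 6-library mean reached 1.5 times the deposited mean and no more, the value that 9 libraries would give. The further libraries were not analysed here. For the members, the deposited mean stood closest to the 6-library mean for BCL2L1 (2360 deposited and 2337 over the 6) and farther from it for BCL2L11 (356 and 303), PMAIP1 (8.46 and 6.58), MCL1 (4809 and 5445) and BCL2 (106 and 134).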
